A study of Homo sapiens with 15 samples.

Results

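A set of 10 Wnt pathway genes was followed in tumors grown from HCT116, a human line derived from colon cancer that carries a mutant CTNNB1. The genes were CTNNB1, AXIN2, LGR5, ASCL2, NKD1, RNF43, ZNRF3, TCF7, LEF1, and MYC. They were taken as a fixed set of names, with every array probe whose RefSeq accession belonged to one of them, which gave 14 probes of 10 genes. The array holds 34127 probes, of which 25422 could be assigned to one of 19483 genes. Each tumor was measured on 1 single-color Agilent human array, and 15 tumors were available, 3 for each of 5 constructs.

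The cells had been transfected with wild type MOAP-1, with MOAP-1 K264R, with MOAP-1 K278R, with HA-tagged wild type RASSF1A in pCDNA3, or with the empty pCDNA3 vector, and were grown as tumors in athymic nude mice. The MOAP-1 protein links the tumor suppressor RASSF1A to Bax, which promotes apoptosis. K264R and K278R each replace a lysine of MOAP-1 with an arginine. All 5 groups share the cell line, the host, and excision at day 35. The transfections were transient according to the study's methods, so the share of cells that still held a construct at excision is not known from the arrays, and athymic hosts contribute stroma and innate immune cells to each tumor. The comparisons ask whether Wnt target mRNAs differed between tumors that had received different constructs.

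In the canonical Wnt pathway, beta-catenin, the product of CTNNB1, is held low by a destruction complex built on AXIN1, AXIN2, APC, GSK3B, and casein kinases. A Wnt ligand bound to a Frizzled receptor and LRP5 or LRP6 stops that complex, and beta-catenin then enters the nucleus and activates genes together with TCF and LEF factors. Colon cancers usually keep this output switched on through loss of APC or, as in HCT116 cells, through a beta-catenin that escapes degradation. Many of its targets, AXIN2, NKD1, RNF43, and ZNRF3 among them, are inhibitors of the pathway and form negative feedback loops.

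Levels are given as log2 of the processed signal relative to the 75th percentile of the same array, so 0 is the level of the probe at that percentile. Each probe is compared only with itself, since levels of different probes are not on a common scale. A change was called when the Benjamini-Hochberg adjusted p of limma's moderated test, fitted to all 15 arrays and 30585 probes, was below 0.05 and the difference was at least 1.5-fold. The p values measure the spread between tumors of 1 construct. In whole tumors, fewer cells of a kind and less RNA per cell cannot be told apart.

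On arrays of this kind the number of tumors limits the precision. On the arrays the signal at the 75th percentile lay between 496.3 and 1402, 85.1 to 93.1% of spots were well above background, and no spot was saturated. The slides did not mix the constructs evenly. The vector tumors shared a slide with RASSF1A tumor 3 alone, the K264R tumors filled a slide of their own, MOAP-1 tumor 2 ran with the K278R tumors, and MOAP-1 tumors 1 and 3 had another slide. Slide and construct therefore cannot be told apart when MOAP-1, K264R, or K278R tumors are set against vector. The same holds for MOAP-1 tumors against K264R or RASSF1A tumors, which shared no slide with them. RASSF1A tumors 1 and 2 were on a slide scanned on a later day, and the differences of the RASSF1A tumors named here are given with and without them.

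The introduced genes were checked first. The MOAP1 probe read -0.18, -0.53, and -0.13 in the vector tumors and 0.34, 0.71, and 0.71 in the MOAP-1 tumors. It read 0.11, 0.46, and 0.25 with K264R, 0.44, 0.42, and 0.53 with K278R, and -0.48, -0.52, and -0.23 with RASSF1A. All 9 tumors with a MOAP-1 construct were above all 6 others. The change against vector was 0.86 (SE 0.14, limma adjusted p = 0.00084) for MOAP-1, 0.55 for K264R, which is just under 1.5-fold, and 0.74 for K278R. The RASSF1 probe did not rise in the RASSF1A tumors, which read 1.56, 1.55, and 1.59 against 1.72, 1.52, and 1.81 with vector. The files do not say whether these probes bind the introduced transcripts, so the RASSF1 values leave the label of the RASSF1A tumors unchecked.

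Colon epithelial markers were strong. Signals of 7 measured epithelial genes, EPCAM, KRT8, KRT18, and KRT19 among them, were summed on the linear scale. The log2 of the sum was 8.07 to 8.27 with vector and 7.52 to 8.05 in the other tumors. The brightest probes weigh most in such a sum, and the other lists were summed in the same way. CDH17, the eighth epithelial gene, was not well above background. Fibroblast markers, measured for 8 of 10 genes, varied more between tumors of 1 construct. Their summed level was 1.24 to 4.45 with vector, 2.79 to 5.66 with MOAP-1, 2.43 to 4.45 with K264R, 3.89 to 5.59 with K278R, and 3.27 to 3.83 with RASSF1A. COL6A3 and LUM were not well above background. Endothelial markers stayed between 1.37 and 2.05 and leukocyte markers between 3.03 and 3.77. The probes are human and the host cells are from mice. Whether these marker values come from host RNA or from the HCT116 cells was not tested, so they do not measure stromal or immune content. The summed level of 8 proliferation genes was 4.31 to 4.40 with vector and 4.45 to 4.72 in the other 12 tumors. The part of these shifts in the values below was not tested.

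The test covered 13 of the 14 probes, those that stood well above background in each tumor of some construct. They stand for 9 genes. LGR5, the R-spondin receptor that marks crypt stem cells, was not well above background on any of the 15 arrays, so it has no fold change here. LEF1 was not well above background in vector tumor 1. CTNNB1, MYC, and TCF7 each have a probe printed in 10 spots on every array, and the SD between those spots was at most 0.091.

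**Figure D1:**
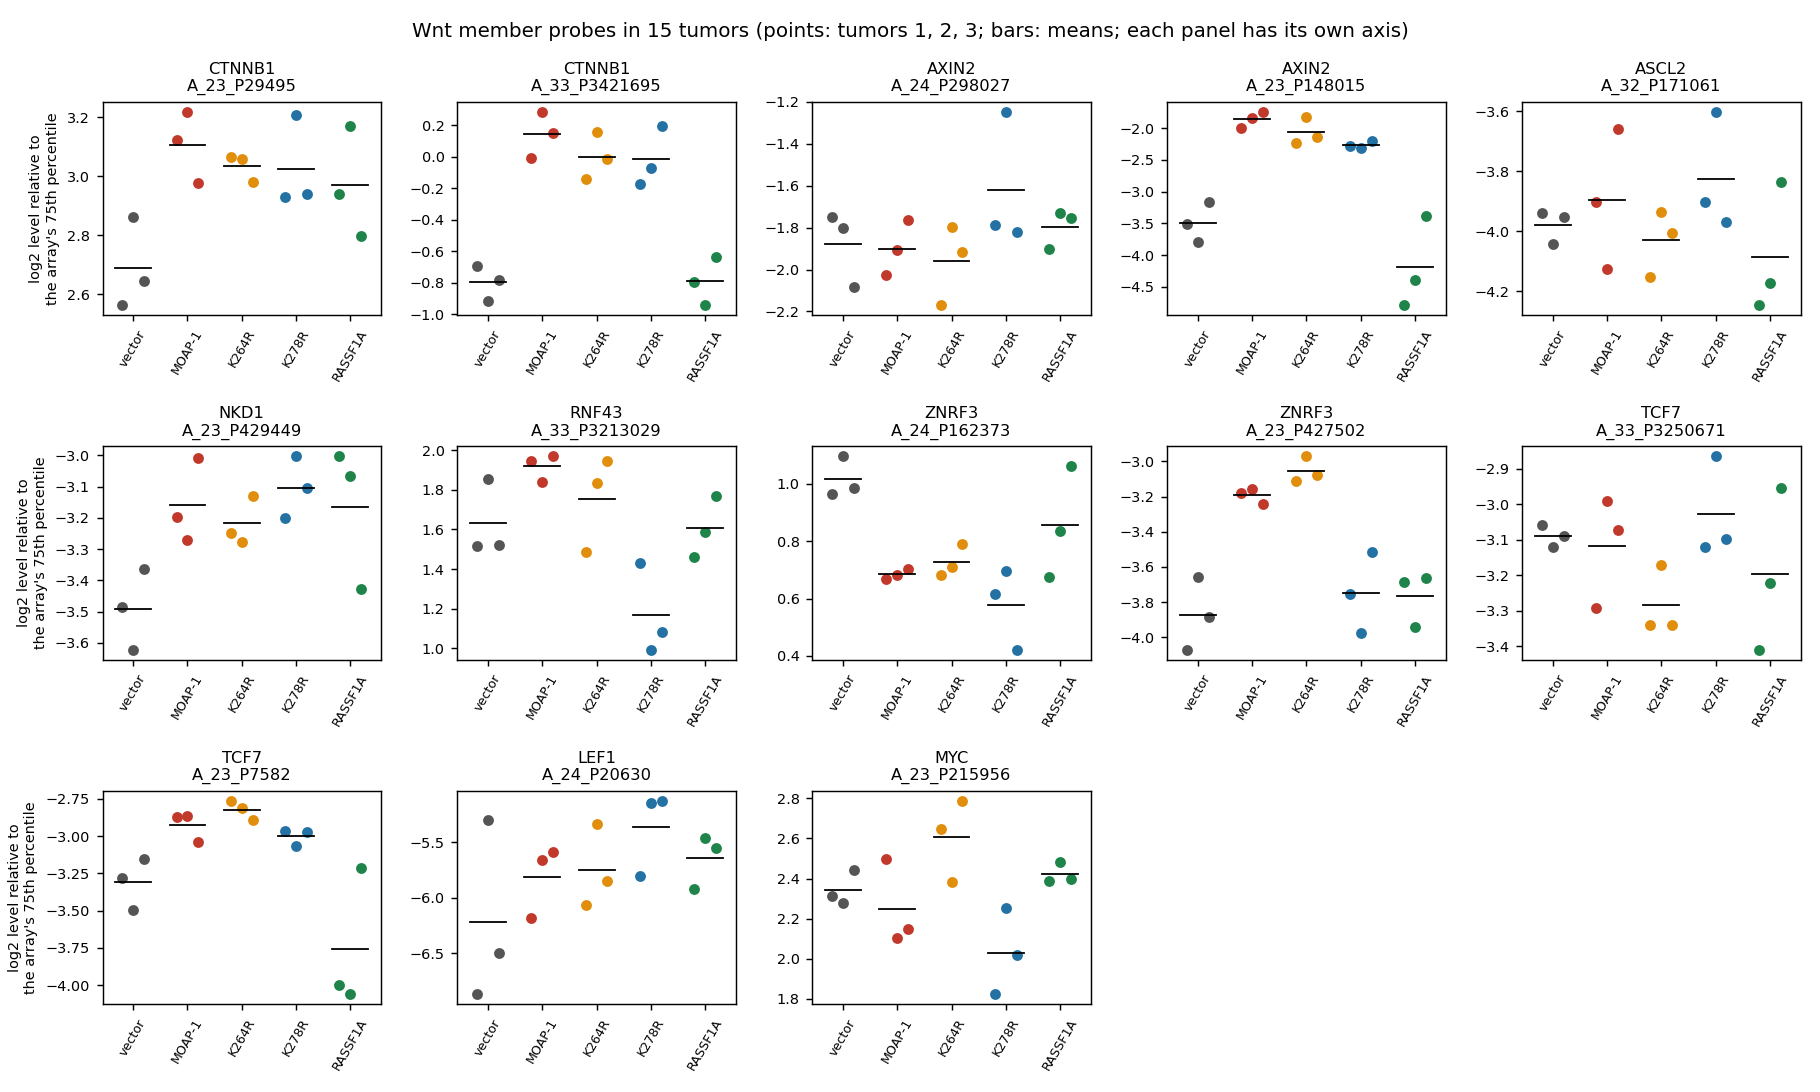
Levels of the 13 tested probes in 15 tumors, in log2 units relative to the 75th percentile of each array. Points are tumors 1 to 3 of each construct from left to right and bars are their means, and each panel has its own axis. All 9 tumors with a MOAP-1 construct sit above the other 6 for AXIN2 A_23_P148015, CTNNB1 A_33_P3421695, and TCF7 A_23_P7582. On the second probes of AXIN2, CTNNB1, and TCF7 these tumors overlap.

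The RefSeq promoter table (GRCh38.p14) holds windows for 4 of the 10 genes, namely CTNNB1, LEF1, RNF43, and TCF7, each running from 250 bases before a transcript start to 50 bases after it. The windows of CTNNB1 and TCF7 are printed because these are the genes with a called change for which a window was at hand. TCF7 is known to be transcribed from more than one start, and its windows lie 8005 bases apart. All are on the plus strand, at chr3:41199255-41199554 for CTNNB1, at chr5:134115363-134115662 for the first TCF7 start, and at chr5:134123368-134123667 for the second. Lower case marks the upstream bases and capitals mark the first 50 transcribed bases.
CTNNB1: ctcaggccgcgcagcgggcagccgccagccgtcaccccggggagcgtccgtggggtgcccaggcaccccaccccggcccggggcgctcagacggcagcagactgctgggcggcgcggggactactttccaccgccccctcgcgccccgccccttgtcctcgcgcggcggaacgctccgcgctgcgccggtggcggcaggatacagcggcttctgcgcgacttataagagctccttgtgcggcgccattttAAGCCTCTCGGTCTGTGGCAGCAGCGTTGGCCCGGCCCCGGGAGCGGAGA
TCF7, first start: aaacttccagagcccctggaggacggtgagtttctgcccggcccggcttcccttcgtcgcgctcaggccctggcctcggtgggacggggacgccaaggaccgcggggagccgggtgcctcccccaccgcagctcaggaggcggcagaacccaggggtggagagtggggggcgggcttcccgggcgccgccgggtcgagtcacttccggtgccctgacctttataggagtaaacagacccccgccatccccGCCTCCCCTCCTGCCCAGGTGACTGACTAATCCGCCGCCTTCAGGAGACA
TCF7, second start: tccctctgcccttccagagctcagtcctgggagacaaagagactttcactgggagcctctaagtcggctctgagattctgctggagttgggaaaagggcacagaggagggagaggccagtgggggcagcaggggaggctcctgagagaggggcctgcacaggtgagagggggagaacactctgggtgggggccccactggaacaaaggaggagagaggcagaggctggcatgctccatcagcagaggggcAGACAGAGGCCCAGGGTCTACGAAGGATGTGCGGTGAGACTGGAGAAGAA
The letters CTTTGA, a form of the core of the TCF and LEF binding motif, were searched on both strands. They are in none of the 6 windows of the 4 genes and in 12.9% of all 35116 windows in the table. G and C make up 74% of the CTNNB1 window and 69.7 and 61% of the TCF7 windows. This says only that the letters CTTTGA are not in these 300 bases. Other forms of the motif, such as CTTTGT, were not searched, and its reverse ACAAAG can be read in the second TCF7 window.

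AXIN2, a scaffold of the destruction complex and a widely used readout of Wnt output, showed the largest change among the 13 probes in each of the comparisons of a MOAP-1 construct with vector. Its probe A_23_P148015 read -3.52, -3.80, and -3.16 in the vector tumors. It read -2.0, -1.84, and -1.74 with MOAP-1, -2.23, -1.82, and -2.13 with K264R, and -2.27, -2.32, and -2.20 with K278R. None of these 9 values reached down to the vector range. The rise was 3.10-fold with MOAP-1 (log2 change 1.63, SE 0.27, adjusted p = 0.00094), 2.70-fold with K264R (1.43, adjusted p = 0.0016), and 2.34-fold with K278R (1.23, adjusted p = 0.0094). In order of their means the constructs ran MOAP-1, K264R, K278R, vector, and RASSF1A. MOAP-1 overlapped K264R and K264R overlapped K278R, so these neighbors did not differ beyond their spread, and vector overlapped RASSF1A.

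The other AXIN2 probe did not show this rise. A_24_P298027, which is listed under the same RefSeq accession, read -1.75, -1.80, and -2.08 with vector and -2.03, -1.91, and -1.77 with MOAP-1. Its change was -0.02 with MOAP-1 (95% interval -0.36 to 0.32), -0.08 with K264R, and 0.26 with K278R (-0.08 to 0.60). For MOAP-1 against vector the 2 probes were thus 1.66 log2 units apart. Across 3568 accessions with 2 or more tested probes the median gap in that comparison was 0.45, and 96.9% of them had a smaller gap than AXIN2. Of the 1229 accessions with a called probe, 88.4% also had a probe that was not called. The probe sequences were not used here, so which transcript or exon each probe reads is not known.

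**Figure D2:**
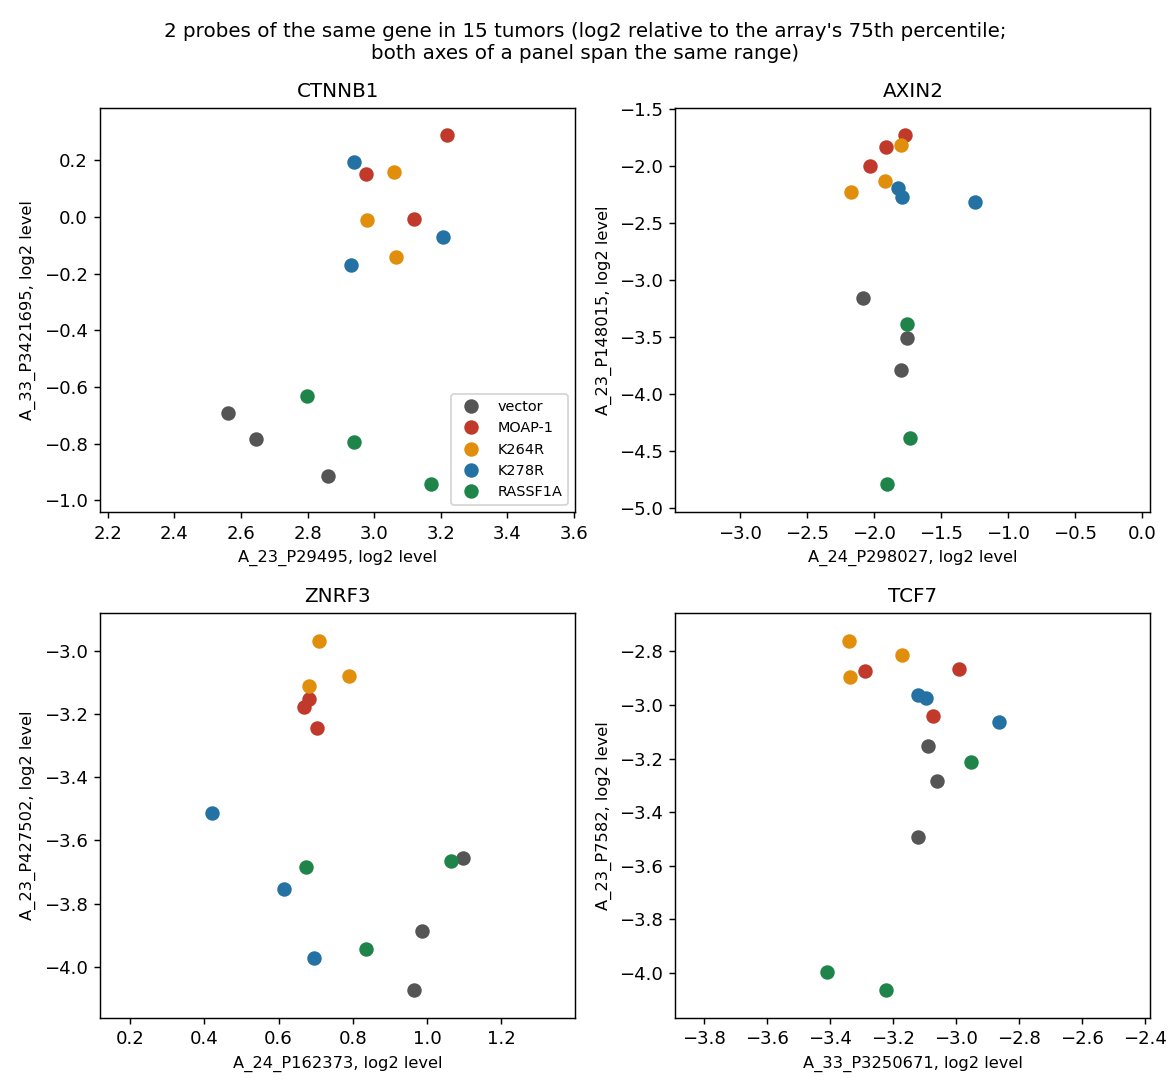
The 2 probes of CTNNB1, AXIN2, ZNRF3, and TCF7 plotted against each other in 15 tumors, in log2 units relative to the 75th percentile of each array, with both axes of a panel spanning the same range. In the AXIN2 panel the tumors spread from -4.79 to -1.74 on one probe and from -2.17 to -1.25 on the other.

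The background correction bears on the AXIN2 rise. With the local background subtracted by normexp, the change of A_23_P148015 with MOAP-1 was 0.00 (adjusted p = 1.0). Under that correction the median of all probes shifted by -0.53 in this comparison. The correction added an offset of 50 to each signal before log2 was taken, which narrows the folds of dim probes. This AXIN2 probe had a processed signal of 55.2, 46.1, and 85.6 in the vector tumors. The part of the offset was not tested. On 3 arrays a few spots had a local background over 10 times the array median, 6 on K264R tumor 2, 6 on vector tumor 2, and 5 on vector tumor 3. Those spots were then left out of the fit of the background model, while the correction was still applied to every spot. Later values without the spots of extreme background are of this setting. The median shift was then -0.15, and the AXIN2 change was 0.87 with MOAP-1 (adjusted p = 0.00079), 0.65 with K264R, and 0.60 with K278R, all still called. When each tumor was left out in turn, the change stayed between 1.48 and 1.80 with MOAP-1, 1.28 and 1.59 with K264R, and 1.08 and 1.39 with K278R, and each was called. The methods' t-test, an unpaired test on the same 3 tumors a group, kept the calls for MOAP-1 and K264R after Benjamini-Hochberg adjustment and lost that for K278R.

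CTNNB1 encodes beta-catenin, the coactivator of the pathway, and rose on its dimmer probe with each of the MOAP-1 constructs. A_33_P3421695 read -0.69, -0.91, and -0.78 with vector and -0.01, 0.29, and 0.15 with MOAP-1. With K264R it read -0.14, 0.16, and -0.01, and with K278R -0.17, -0.07, and 0.19. The groups did not overlap with vector, and the RASSF1A tumors, at -0.79, -0.94, and -0.63, overlapped with it. The change was 0.94 with MOAP-1 (1.92-fold, SE 0.13, adjusted p = 0.00032), 0.80 with K264R (1.74-fold, adjusted p = 0.00051), and 0.78 with K278R (1.72-fold, adjusted p = 0.0028). With normexp the first was kept at 0.76 (adjusted p = 0.024), and those for K264R (0.58) and K278R (0.60, adjusted p = 0.17) were lost.

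The brighter CTNNB1 probe moved the same way by less. A_23_P29495, listed under another RefSeq accession of the gene and printed in 10 spots, read 2.56, 2.86, and 2.65 with vector and 3.12, 3.22, and 2.98 with MOAP-1. All 3 MOAP-1 tumors were above all 3 vector tumors. The change was 0.42 with MOAP-1 (1.33-fold, adjusted p = 0.021), 0.35 with K264R (adjusted p = 0.042), 0.34 with K278R (adjusted p = 0.066), and 0.28 with RASSF1A (adjusted p = 0.39), or 0.11 without the RASSF1A tumors of the later slide. None of these reached 1.5-fold. Quantile normalization raised the first to 0.59, which was called.

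Among the feedback inhibitors at the cell surface, the ubiquitin ligases ZNRF3 and RNF43 remove Frizzled receptors from the membrane. The ZNRF3 probe A_23_P427502 read -4.07, -3.65, and -3.89 with vector, -3.18, -3.15, and -3.24 with MOAP-1, and -3.11, -2.97, and -3.08 with K264R. The K278R tumors, at -3.75, -3.97, and -3.51, overlapped with vector. The rise was 1.60-fold with MOAP-1 (0.68, SE 0.13, adjusted p = 0.0024) and 1.76-fold with K264R (0.82, adjusted p = 0.00055), against 0.12 with K278R (95% interval -0.16 to 0.41). K278R against MOAP-1 was itself not called: wild type was higher by 0.56 (unadjusted p = 0.001, adjusted p = 0.39). Without K278R tumor 3 the difference was 0.67 and called (adjusted p = 0.044). That fit called 205 of all probes (0.67%), against 0 with all tumors in.

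The ZNRF3 rise depended on processing and on the probe. With quantile normalization the MOAP-1 change was 0.52, below 1.5-fold, and without vector tumor 1 it was 0.58. With normexp it was -0.87, and without the spots of extreme background it was 0.04 for MOAP-1 and 0.01 for K264R. The brighter probe A_24_P162373, of the same accession, went the other way. It read 0.96, 1.1, and 0.99 with vector, 0.67, 0.68, and 0.70 with MOAP-1, 0.68, 0.71, and 0.79 with K264R, and 0.62, 0.70, and 0.42 with K278R. All 9 of these were below the vector tumors. The change was -0.33 with MOAP-1 (adjusted p = 0.032), -0.29 with K264R (adjusted p = 0.050), and -0.44 with K278R (adjusted p = 0.014), each under 1.5-fold. For MOAP-1 the 2 probes were 1.01 log2 units apart, a gap that 84.8% of accessions stayed under.

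RNF43 and NKD1, which binds Dishevelled and restrains it, had no called change against vector with all tumors in. RNF43 read 1.51, 1.86, and 1.52 with vector, 1.95, 1.84, and 1.97 with MOAP-1, and 1.43, 0.99, and 1.08 with K278R. The K278R tumors were the lowest group, and the fall against vector was 1.38-fold (-0.46, adjusted p = 0.045). Against wild type MOAP-1 the gap was 0.75 (95% interval 0.43 to 1.08, unadjusted p = 0.00023, adjusted p = 0.37), with all 3 tumors apart. NKD1 read -3.49, -3.62, and -3.36 with vector. It was higher by 0.33 with MOAP-1 (adjusted p = 0.056), 0.27 with K264R, 0.39 with K278R (adjusted p = 0.041), and 0.33 with RASSF1A, where the tumors overlapped with vector and the value was 0.06 without the later slide. No change of RNF43 or NKD1 reached 1.5-fold against vector with all tumors in, but without K278R tumor 1 the fall of RNF43 with K278R was -0.59 and called (adjusted p = 0.023).

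TCF7 and LEF1 encode DNA-binding partners of beta-catenin. The TCF7 probe A_23_P7582 read -3.28, -3.49, and -3.15 with vector, -2.87, -2.87, and -3.04 with MOAP-1, -2.76, -2.81, and -2.89 with K264R, and -2.96, -3.06, and -2.97 with K278R. All 9 were above vector, by 0.38 (adjusted p = 0.12), 0.49 (adjusted p = 0.049), and 0.31 (adjusted p = 0.23), and none of these reached 1.5-fold. The second TCF7 probe, A_33_P3250671, changed by -0.03, -0.19, and 0.06. LEF1 was dim and variable, at -6.87, -5.30, and -6.50 with vector and -5.81, -5.14, and -5.12 with K278R. Its change with K278R, 0.86 (95% interval 0.12 to 1.61, adjusted p = 0.091), was not called. Vector tumor 2 decided this, since without it the LEF1 change was 1.33 and called (adjusted p = 0.017), as were those with MOAP-1 (0.87) and K264R (0.94). With normexp the LEF1 changes were all below 0.

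The remaining targets showed no call in any comparison. ASCL2, a transcription factor of intestinal stem cells, changed by 0.08 with MOAP-1 (95% interval -0.23 to 0.39), -0.05 with K264R, and 0.15 with K278R. MYC, which drives growth and is a textbook target in colon cancer, read 2.31, 2.28, and 2.44 with vector, 2.50, 2.10, and 2.15 with MOAP-1, and 2.65, 2.38, and 2.79 with K264R. The K278R tumors, at 1.82, 2.25, and 2.02, were all below vector. The changes of -0.09 (95% interval -0.39 to 0.21), 0.26, and -0.31 (adjusted p = 0.12) stayed under 1.5-fold.

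Counted over the 13 probes, 3 were called with MOAP-1 against vector, all higher, beside 16.6% of all probes in either direction, 9.92% higher and 6.69% lower. With K264R 3 were called, again all higher, beside 19.5% of all probes, 9.25% higher and 10.2% lower. With K278R 2 were called, both higher, beside 10.9%, 7.71% higher and 3.2% lower. At any fold the adjusted p was below 0.05 for 5 of the 13 probes with MOAP-1, 5 with K264R, and 5 with K278R, beside 30.5%, 34.9%, and 20.6% of all probes. At an unadjusted p below 0.05 there were 6, 7, and 8, beside 42.4%, 45%, and 36.2%. The median change of the 13 probes was 0.33, 0.27, and 0.26, beside 0.02, -0.05, and 0.06 over all probes. Groups that did not overlap were counted as well. For MOAP-1 6 probes lay above vector and 1 below, against 25% and 23.5% of all probes. For K264R 6 lay above and 2 below, against 22.7% and 30%. For K278R 5 lay above and 3 below, against 23.7% and 13.6%. The 3 comparisons share the vector tumors, so they are not independent of each other. Where a single probe stood for each gene, the one with the highest mean level, 0 of 9 genes were called with MOAP-1, K264R, or K278R, beside 15%, 18.4%, and 9.56% of 18016 genes.

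**Figure D3:**
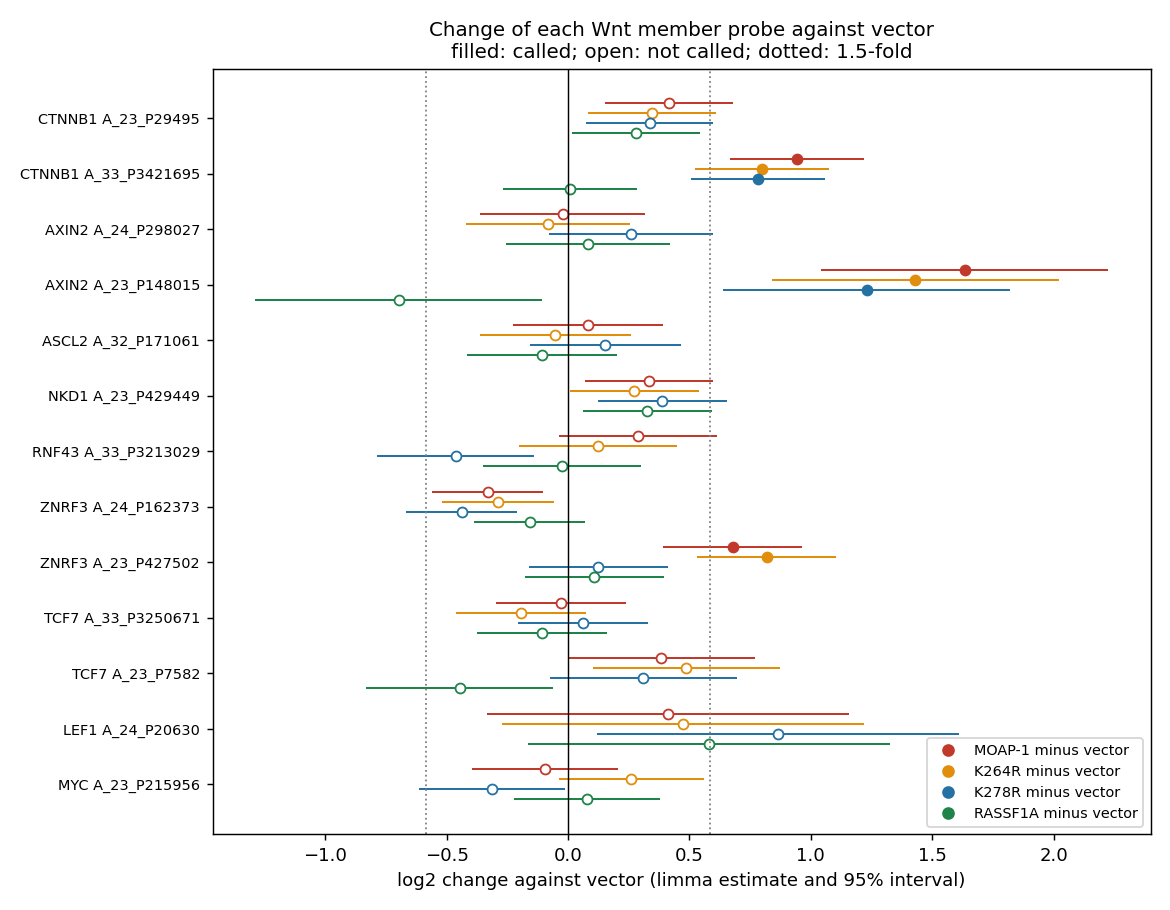
Log2 change of each of the 13 probes against vector with the 95% interval from limma, for MOAP-1, K264R, K278R, and RASSF1A. Filled points were called and dotted lines mark 1.5-fold. The intervals of AXIN2 A_23_P148015 and CTNNB1 A_33_P3421695 lie above 0 for all of the MOAP-1 constructs.

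A group of 3 probes separated the 9 tumors with any MOAP-1 construct from the other 6 without overlap, a split set by the labels but looked at after the values were seen. They were AXIN2 A_23_P148015, CTNNB1 A_33_P3421695, and TCF7 A_23_P7582, all higher with MOAP-1 constructs, and none was lower. Of all probes, 9.83% were higher in this way and 8.02% lower.

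The RASSF1A tumors were set against vector next. Of the 13 probes 0 were called by limma, as were 0% of all probes, and 4 had an unadjusted p below 0.05 beside 12.1% of all probes. No probe of the 13 lay above or below vector without overlap, beside 10.1% and 4.64% of all probes. The methods' t-test also called 0. AXIN2 A_23_P148015 read -4.79, -4.39, and -3.39 with RASSF1A, and TCF7 A_23_P7582 read -4.00, -4.06, and -3.21. In both the low values were tumors 1 and 2, those of the later slide, and tumor 3, on the slide of the vector tumors, lay in the vector range. The changes were -0.70 for AXIN2 (95% interval -1.29 to -0.11, adjusted p = 0.36) and -0.45 for TCF7 (adjusted p = 0.37). Without tumors 1 and 2 both were 0.10, and without tumor 3 both were called, at -1.1 (adjusted p = 0.0090) and -0.72 (adjusted p = 0.0070). The fit without tumor 3 called 4.6% of all probes. Slide and scan day are the same split here.

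Wild type MOAP-1 against RASSF1A gave 3 called probes, all higher with MOAP-1, beside 21.2% of all probes and 13% higher. AXIN2 A_23_P148015 differed by 2.33 (5.03-fold, adjusted p = 6.0e-05), CTNNB1 A_33_P3421695 by 0.93 (1.91-fold, adjusted p = 0.00015), and TCF7 A_23_P7582 by 0.83 (1.78-fold, adjusted p = 0.0028). Without the RASSF1A tumors of the later slide the AXIN2 difference was 1.53 and that of CTNNB1 0.78, while that of TCF7 fell to 0.29. This leaves RASSF1A tumor 3 alone, on a slide that no MOAP-1 tumor shared. ZNRF3 A_23_P427502 differed by 0.57 (adjusted p = 0.0045), just under 1.5-fold, and by 0.47 without the later slide. Of the 13 probes 5 lay above the RASSF1A tumors without overlap and 0 below, beside 24.6% and 26.4% of all probes.

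The lysine mutants were compared with wild type MOAP-1 directly. Of the 13 probes 0 were called against K264R, beside 0.00327% of all probes, and 0 against K278R, beside 0%. At an unadjusted p below 0.05 there were 1 and 2, beside 10.9% and 9.22% of all probes. Against K264R 0 of the 13 lay above without overlap and 1 below, beside 13.5% and 5.87% of all probes. Against K278R 3 lay above and 0 below, beside 4.84% and 8.16%, and these were AXIN2 A_23_P148015, RNF43, and ZNRF3 A_23_P427502. The methods' t-test called 0 in each after adjustment. AXIN2 A_23_P148015 differed by 0.20 from K264R (95% interval -0.39 to 0.79) and by 0.40 from K278R (-0.19 to 0.99). CTNNB1 A_33_P3421695 differed by 0.14 (-0.13 to 0.42) and 0.16 (-0.12 to 0.44). These intervals leave room for differences of over 1.5-fold in AXIN2 but not in CTNNB1. MYC was lower in wild type than in K264R tumors by 0.35 (fold change 0.782, adjusted p = 0.41).

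The rest of the pathway was read from lists of its components, each gene by its brightest tested probe. Against vector in the MOAP-1 tumors, 1 of 17 Wnt ligands was called higher and 2 lower, 1 of 2 genes of ligand release was higher, and none of 17 receptors or 12 secreted inhibitors was called. Among 21 genes of the cytoplasmic relay 5 were higher and 2 lower, and among 19 nuclear factors 3 were higher and 2 lower. Of 19 other targets of the pathway 4 were higher and 0 lower, and of 6 adhesion partners of beta-catenin 0 were called. These shares stand beside 15% of all genes, 9.18% higher and 5.83% lower. The called genes depended on the background correction. Of the 20 called with MOAP-1, all kept their sign and 16 their call with quantile normalization. With normexp 14 kept the sign and 1 the call. With the spots of extreme background left out of its fit, 18 and 12 did. Under those 3 settings 23, 4, and 20 of the 25 called with K264R were called the same way, and 7, 0, and 3 of the 11 called with K278R. The list medians lay between -0.22 for ligands and 0.54 for ligand release, beside 0.01 over all genes. With normexp the median of all probes shifted by -0.53 with MOAP-1, -0.31 with K264R, and -0.46 with K278R against vector. The normexp values of single genes below include that shift.

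Among ligands, ligand release, receptors, and secreted inhibitors, WLS, which carries Wnt proteins to the cell surface, had the largest called change with MOAP-1 against vector. Its probe A_24_P256380 read -3.16, -3.07, and -3.22 with vector and -1.80, -1.42, and -1.49 with MOAP-1, a 3.0-fold rise (adjusted p = 0.00042), and rose by 1.27 with K264R and 1.03 with K278R. Its second probe changed by -0.27, -0.29, and -0.35, none of them called. With normexp the first probe changed by 0.31 with MOAP-1, and by 1.02 (called) without the spots of extreme background. The ligands WNT5B (0.89, but -1.62 with normexp), WNT10B (-0.78), and WNT9A (-0.63) were called with MOAP-1. With K264R 4 of 17 ligands were lower and none higher, beside 8.93% and 9.46% of all genes. The largest of these falls were those of WNT2B (-1.95), WNT8B (-1.09), and WNT3 (-0.85). The Frizzled receptors FZD9 (-1.0) and FZD10 (-0.77) and the secreted inhibitors SFRP1 (-1.09) and DKK4 (-1.06) were also lower with K264R, as was PORCN (-0.60), which acylates Wnt proteins. With K278R, WNT8B (-1.05) and the inhibitor FRZB (0.62, higher; -1.22 with normexp) were called besides WLS.

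In the destruction complex, AXIN1 read -2.64, -2.92, and -2.27 with vector, -1.81, -1.86, and -1.88 with MOAP-1, and -1.97, -1.98, and -2.03 with K264R. All 9 tumors with a MOAP-1 construct lay above vector. The rise was 0.76 with MOAP-1 (adjusted p = 0.030), 0.61 with K264R (adjusted p = 0.063, not called), and 0.72 with K278R (adjusted p = 0.050, called). With normexp these turned to -0.18 with MOAP-1 and -0.22 with K278R, and without the spots of extreme background they were 0.47 and 0.43, not called. APC, its partner, changed by 0.25, 0.01, and 0.19, and GSK3B, the kinase that marks beta-catenin for degradation, by 0.38, 0.21, and 0.17, none called. USP34 and RNF146, which act on the stability of axin, rose with MOAP-1 by 1.02 and 0.90, of which RNF146 turned to -0.62 with normexp. PPP2R1A, a phosphatase subunit, rose by 0.76 and was called under each of these settings.

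In the nucleus, the corepressor TLE3 rose by 1.04 with MOAP-1 (-0.75 with normexp) and TLE1 fell by 0.80 (-0.56 with normexp). With normexp the median of all probes shifted by -0.53 in this comparison, close to the TLE1 value. TLE3 read -4.55, -4.62, and -4.23 with vector and -3.26, -3.38, and -3.65 with MOAP-1. With RASSF1A it read -5.83, -5.55, and -4.63, lowest in tumors 1 and 2 of the later slide, as AXIN2 and TCF7 were. PYGO1 (0.81, but -1.68 with normexp) was higher and the chromatin remodeler SMARCA4 (-0.74) was lower. TCF7L2, the main TCF factor of the colon, fell with K264R by 0.98 on its brightest probe, against -0.35 with MOAP-1 and -0.38 with K278R, neither called. TCF7L2 probe A_23_P127013 read -0.10, -0.18, and -0.07 with vector, -0.73, -0.52, and -0.51 with K264R, and 0.02, -0.57, and -0.41 with MOAP-1. The dimmest TCF7L2 probe, A_33_P3377304, changed by 0.35 with K264R and was called higher with MOAP-1 (0.63, adjusted p = 0.040).

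Among other Wnt targets, ENC1, an actin-binding gene raised in colon tumors, changed most. It read -5.93, -5.94, and -4.94 with vector, -2.93, -3.17, and -3.13 with MOAP-1, -2.84, -3.13, and -2.62 with K264R, and -3.94, -4.64, and -2.53 with K278R. The rise was 5.77-fold with MOAP-1 (2.53, SE 0.41, adjusted p = 0.00075), 6.69-fold with K264R, and 3.73-fold with K278R. These values belong to a dim probe and to the processed signal. The normexp values that follow include the offset of 50, which weighs most on dim probes. With normexp the ENC1 change was -0.64 with MOAP-1, 0.15 with K264R, and -0.71 with K278R, and without the spots of extreme background it was 0.54 (adjusted p = 0.023, under 1.5-fold), 0.59 (called), and 0.46. The progenitor factors SOX9 and SOX4 rose with MOAP-1 by 0.95 and 1.12 and with K264R by 1.04 and 1.23, and these kept their sign with normexp (0.71 and 0.69 with MOAP-1), while with K278R their changes of 0.58 and 0.31 were not called. BMP4 rose by 0.85 with MOAP-1 (adjusted p = 0.048). CCND1, the cyclin of entry into S phase, changed by 0.41, 0.44, and 0.52 against vector, none called, and was higher with MOAP-1 than with RASSF1A by 1.23 (adjusted p = 0.0017), where the RASSF1A tumors read -0.38, -0.05, and 0.78. Without tumors 1 and 2, those of the later slide, that CCND1 difference was 0.56 and not called (adjusted p = 0.14). Of 19 other targets 4 were called with K264R and 1 with K278R, none of them lower, beside 9.46% of all genes higher and 8.93% lower with K264R and 6.6% higher and 2.96% lower with K278R.

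**Figure D4:**
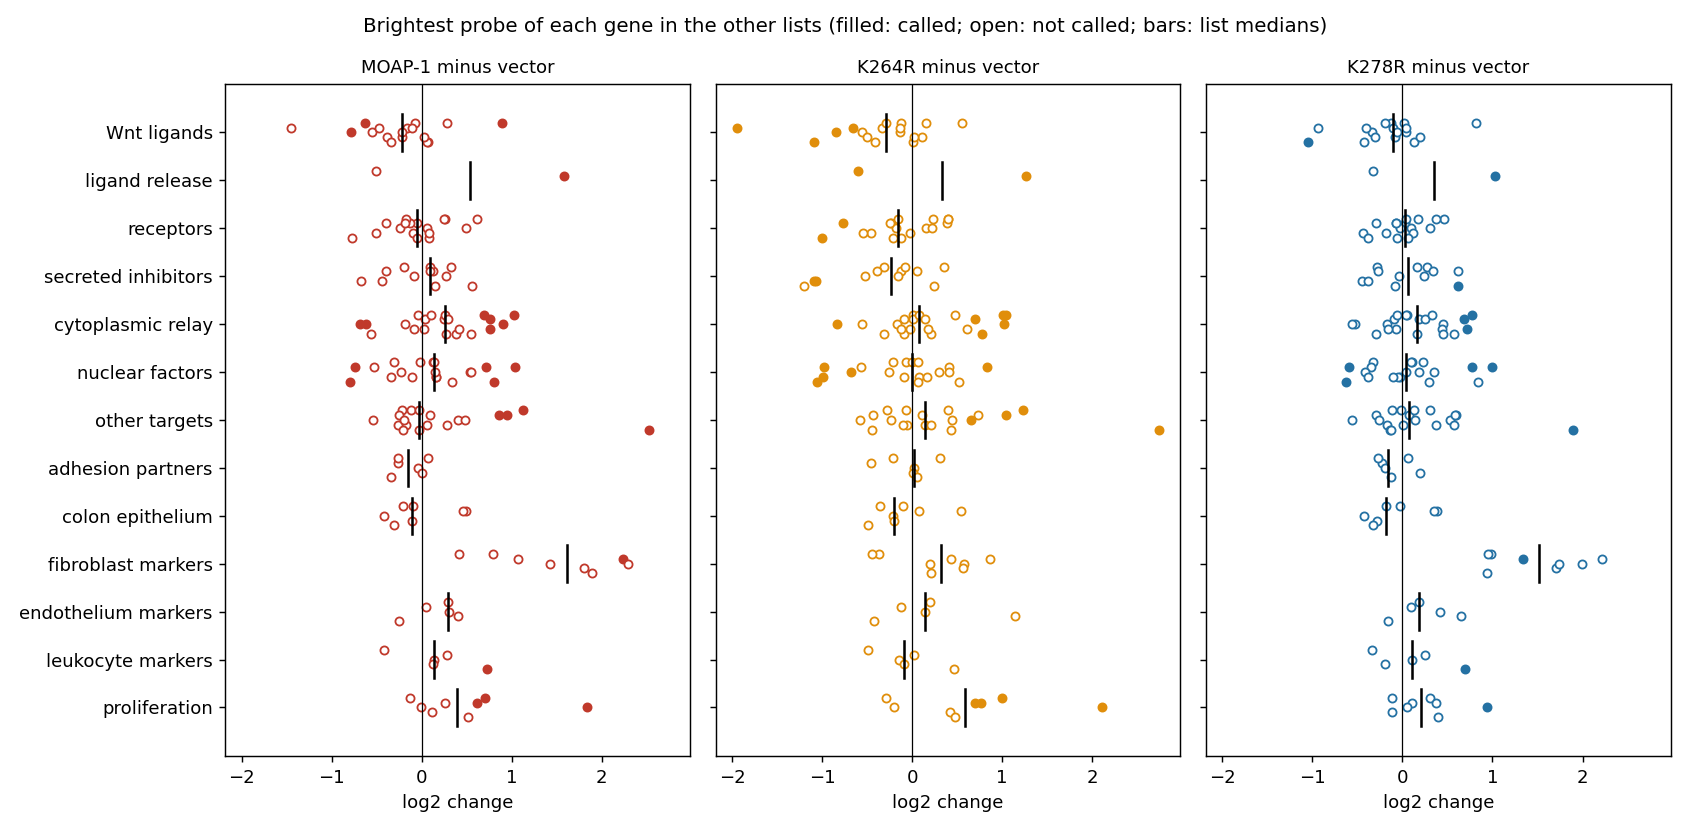
Log2 change against vector of the brightest tested probe of each gene in the lists of pathway components and of cell type markers, for MOAP-1, K264R, and K278R. Filled points were called, open points were not, and bars are list medians. ENC1 is the rightmost filled point among the other targets, at 2.53, 2.74, and 1.90 (-0.64, 0.15, and -0.71 with normexp), and the fibroblast markers have medians of 1.61, 0.32, and 1.52.

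The marker lists were read in the same way. With MOAP-1 1 of 8 fibroblast markers was called (COL1A1, 2.24, higher), as was the leukocyte gene PTPRC (0.72), while 0 of 5 endothelial and 0 of 7 epithelial genes were. The median change of the fibroblast markers was 1.61 with MOAP-1, 0.32 with K264R, where none was called, and 1.52 with K278R, where PDGFRB was called (1.34). Of 8 proliferation genes 3 were called higher with MOAP-1, TOP2A (1.84), AURKA (0.70), and PCNA (0.61), 4 with K264R, and 1 with K278R. Beside these marker counts, 9.18% of all genes were called higher with MOAP-1, 9.46% with K264R, and 6.6% with K278R. The part of proliferation in the Wnt values was not tested.

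The genes whose brightest probe followed that of AXIN2 most closely over the 15 arrays were ADGRG3, POT1, LGALS2, BEND4, and FAM66D, with Pearson r of 0.93 to 0.92 among 17953 genes. For AXIN2 this is A_24_P298027, the probe that did not rise. For CTNNB1 the closest included SP1, CCDC9, SIN3A, and TEX41, with r of 0.92 to 0.86. These values describe arrays that share slides and scaling, and the constructs are among what they share.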

How the data were processed

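RNA of 15 HCT116 xenograft tumors, 3 for each of 5 constructs, had been hybridized to single-color Agilent human arrays. The deposited scanner files hold intensity values that the authors obtained with Agilent Feature Extraction (version 10.5.1.1 in the file headers, 9.1 in the submitters' processing notes). The deposited table of log2 values, which the authors made in GeneSpring, was used as an alternative only.

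Control spots and flagged outliers were left out, log2 of the processed signal was taken relative to the 75th percentile of each array, and spots of a probe were averaged. Probes were named through their RefSeq accession, which gave 25422 of 34127 probes a gene. Kept were 30585 probes that were well above background on all 3 arrays of at least 1 construct. The model, run in limma (version 3.58.1; R version 4.3.3), had construct as its only term and 10 residual degrees of freedom. Changes with a Benjamini-Hochberg adjusted p below 0.05 and of at least 1.5-fold were called. The fit was tested on simulated data. Background correction, normalization, filters, array weights, slide, scan day, replicate number, the methods' t-test, the authors' table, and each tumor left out in turn were tried as alternatives.

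The genes named were every probe of the 10 members, MOAP1 and RASSF1, up to 4 called genes of each list in order of the size of the change (each gene by its brightest kept probe), APC, AXIN1, GSK3B, TCF7L2, and CCND1 always, and the 5 genes most like AXIN2 and CTNNB1, of which 1 is not reported here. Members and lists were chosen with earlier results of these data known. The small number of arrays limits the precision.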

Additional observations from a re-analysis of the deposited data

How the results depend on the processing

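With normexp the number of called probes among the 13 was 1 for MOAP-1 against vector, 0 for K264R, 0 for K278R, and 1 for MOAP-1 against RASSF1A. The shares of all probes were 1.71%, 2.99%, 0.00327%, and 7.39%. Normexp turned the change of ZNRF3 A_23_P427502 to -0.87 with MOAP-1 and -0.20 with K264R, of TCF7 A_23_P7582 to -0.15 with K264R, and of AXIN2 A_23_P148015 to -0.27 and NKD1 to -0.81 with K278R. The cause was not tested. The methods' t-test left 0 calls for K278R against vector. With each tumor left out in turn the count was 0 to 1 for MOAP-1 against K278R. The 1 was ZNRF3 without K278R tumor 3, beside 0.67% of all probes. For RASSF1A against vector the count was 0 to 2. The 2 were AXIN2 and TCF7 without RASSF1A tumor 3, beside 4.6% of all probes. The count of all probes called for MOAP-1 against vector, 5079, was 522 with normexp, 2756 with normexp without the spots of extreme background (a setting added after the data were seen), and 2627 with the methods' t-test. For K264R 5949 became 914 and 8984 with these background corrections. For K278R 3337 became 1 and 1302, 1171 with the compared arrays alone, 0 with the methods' t-test, and 1687 without vector tumor 2. For RASSF1A against vector 0 became 36 without the 2 tumors of the later slide (added after the data were seen), 36 with scan day as a block, 35 within the shared slide, and 1408 without RASSF1A tumor 3. For MOAP-1 against K264R 1 became 1806 with array weights and 36 without MOAP-1 tumor 1. For MOAP-1 against K278R 0 became 205 without K278R tumor 3 and 4 within the shared slide. For MOAP-1 against RASSF1A 6481 became 2260 and 3814 with the background corrections, 3260 with scan day as a block, 4201 with the methods' t-test, and 3142 without the later slide.

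Over 30 pairs of tumors with the same replicate number, the correlation of deviations ranged from -0.25 to 0.37. Its median was 0.11, and 15 pairs were over 0.1. Pairs with different numbers were not set beside them, so whether the numbers pair the tumors is not known. With the replicate number as a block, 3 of the 13 probes were called for MOAP-1, 3 for K264R, and 3 for K278R against vector. The shares of all probes were 17.2%, 19.8%, and 11.6%. For RASSF1A against vector 0 were called, beside 0% of all probes, and for MOAP-1 against RASSF1A 3, beside 21.5%. The block added 1 call for K278R, that of LEF1 (0.86, adjusted p = 0.018), and changed no other call among the 13.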
